A study of Mus musculus with 9 samples.

Results

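Osteopontin (Spp1) and 9 further genes that mark macrophages of tissue repair were followed in libraries sorted as regulatory T cells (Tregs) from the heart, spleen and mediastinal lymph node of mice with a heart injury. The members are the surface receptors Adgre1 and Mrc1, the matrix-associated secreted proteins Spp1, Fn1 and Thbs1, the lipid and lysosome genes Apoe and Gpnmb, and the alternative activation genes Arg1, Chil3 and Retnla. They were taken by symbol from the table of read counts, and all 10 were found among its 49510 genes. A total of 9 had enough counts to be tested, and Retnla did not.

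Cells came from 8-week-old Foxp3-GFP mice, in which the promoter of Foxp3, the lineage factor of Tregs, drives a green fluorescent reporter. All animals, including those that gave spleen and lymph node cells, had been killed 3 days after ischemia/reperfusion injury, in which blood flow to heart muscle is blocked and restored. By label, the groups therefore differ by organ only, namely injured heart, spleen and the mediastinal lymph node (MLN) that drains the heart. Each has 3 libraries, and no uninjured animals were analysed here. Any difference in the mix of sorted cells goes with organ and cannot be told apart from it. Tregs were enriched with magnetic beads before flow sorting, and RNA was amplified with a kit for very small inputs. Whether each library stands for its own mouse or for pooled mice is not in the labels. The p-values here thus reflect just the spread among libraries of the same organ, which may be partly technical. That spread was estimated from all 3 organs together, so MLN libraries also bear on the heart against the spleen.

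After a heart infarct, monocytes enter the damaged muscle and become macrophages that clear dead cells and later promote scar formation. Macrophages of this repair phase secrete osteopontin, an acidic glycoprotein that binds integrins and CD44, together with fibronectin and thrombospondin 1, which tie cells to the provisional matrix. Lipid-loaded macrophages make apolipoprotein E and the lysosome-associated protein GPNMB, and signalling by IL-4 and IL-13 induces the mannose receptor, arginase 1, the chitinase-like protein Ym1 (Chil3) and the resistin-like protein RELMalpha (Retnla). None of these genes defines a T cell, although osteopontin is also made by activated T cells and several matrix genes by fibroblasts.

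Library totals ranged from 156194012 to 267520538 counts, and a count of 0 allows up to 3 counts, or 0.0104 to 0.0193 CPM (read counts scaled to a common library size). T cell marker genes summed to between 1863 and 2841 CPM in the heart, 3260 to 4244 CPM in the spleen and 3116 to 4302 CPM in the MLN. A list of 8 Treg markers summed to 1279, 1507 and 1049 CPM in heart 1, 2 and 3, to between 2931 and 3353 CPM in the spleen and to between 2643 and 4151 CPM in the MLN. Ikzf2 of this list fell in the heart against both organs, and Izumo1r fell against the MLN. Foxp3 was at 8.77, 38.0 and 0.240 CPM in heart 1, 2 and 3 and at 31.2 CPM or more in the other libraries, so heart 3 was close to 0 for the gene whose reporter was sorted. A macrophage marker list, which holds none of the members, was found in all 9 libraries and summed above the Treg list in each heart library. Its genes summed to 9937, 5570 and 10551 CPM in heart 1, 2 and 3, to 862.3, 1401 and 2180 CPM in spleen 1, 2 and 3, and to 254.9, 761.6 and 564.0 CPM in MLN 1, 2 and 3. The 15 symbols of this list matched 16 genes in the read counts. Of these, 2 rose in the heart against the spleen (Cd68 and Ccr2) and 6 against the MLN. Of all tested genes, 0.614% and 1.1% rose. The part of macrophage RNA in the levels below was not tested. A mast cell marker list also summed above the Treg list in heart 1 and 2, at 8226 and 5032 CPM, but was at 12.6 CPM in heart 3. A B cell list summed to between 3704 and 4977 CPM in the spleen libraries. In these bulk libraries, fewer cells of a type and less RNA per cell cannot be told apart.

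Most of the repair macrophage genes had their highest levels in the heart libraries, and the size of the difference varied widely among them. Levels in the heart lay above all 3 spleen libraries for 8 of 10 members, where 12.4% of all tested genes did so, and above all 3 MLN libraries for 9 of 10, where 14.9% did so. Spp1, Thbs1 and Arg1 differed most from the spleen, with fitted differences of 2468-fold, 1541-fold and 241-fold, and Chil3 differed least, at 3.41-fold. In edgeR's quasi-likelihood test, adjusted over 16609 genes after Benjamini and Hochberg, 0 members passed an adjusted p of 0.05 in the heart against the spleen (0.789% of all genes passed) and 1, Gpnmb, passed against the MLN (1.38%). At an unadjusted p below 0.05 these counts were 5 and 7, against 13.6% and 15.5% of all genes. DESeq2 called 5 members in the heart against the spleen, where it called 11.3% of all genes, and 6 against the MLN, where it called 13.2%. With limma-voom these counts were 5 and 5, against 6.87% and 8.02% of all genes. Both heart comparisons use the same heart libraries.

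**Figure D1:**
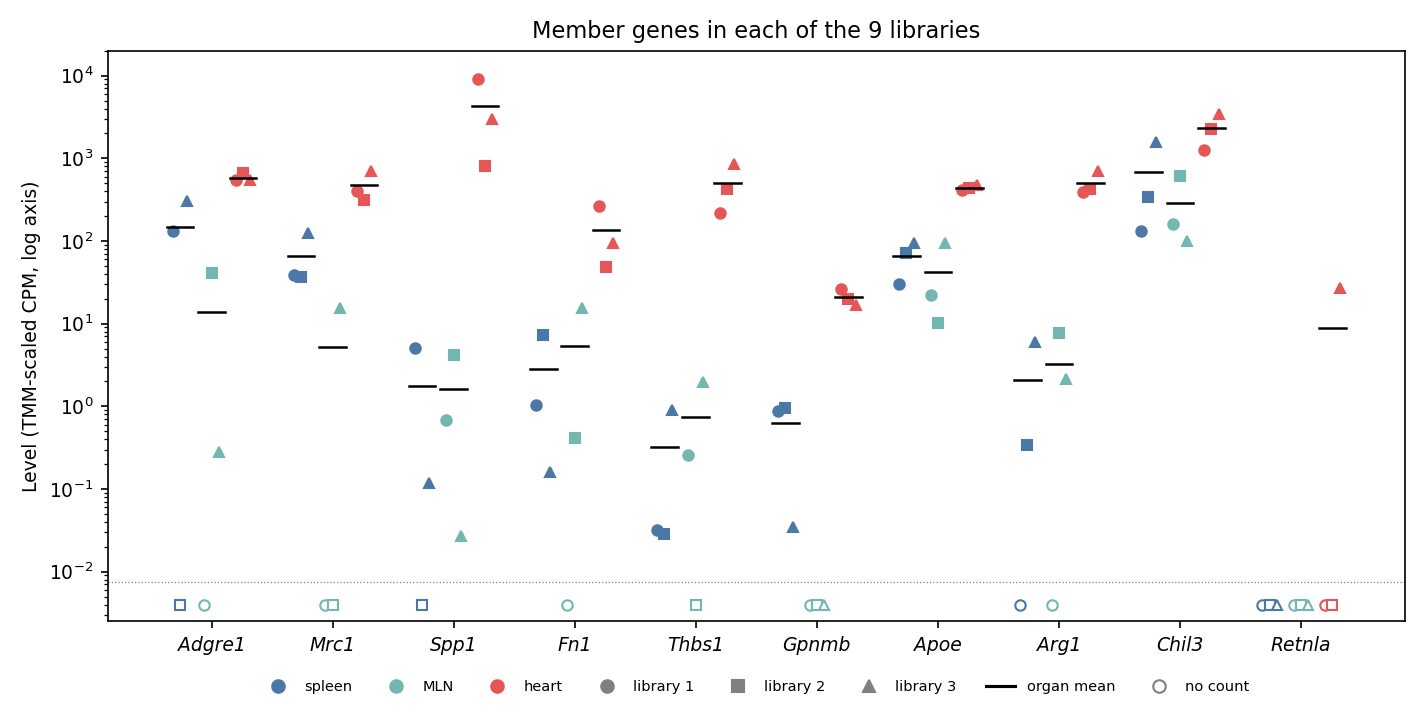
Level of each member gene in each library, in CPM scaled by trimmed mean of M-values on a log axis. Colours mark organs, shapes mark library numbers, black lines mark organ means, and open symbols under the dotted line mark libraries with no count. Heart libraries lie above the others for every gene except Chil3, which overlaps the spleen, and Retnla, which had counts in heart 3 alone.

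Adgre1 encodes F4/80, the adhesion G protein-coupled receptor used as a surface marker of mouse macrophages. It was at 540.1, 656.6 and 548.7 CPM in heart 1, 2 and 3, at 130.6, 0 and 307.7 CPM in spleen 1, 2 and 3, and at 0, 40.7 and 0.282 CPM in MLN 1, 2 and 3. As shares of all counts, the heart libraries ran from 0.0405% in heart 1 to 0.0727% in heart 2. With the scaling used they were within 1.22-fold of each other, whereas a spleen and an MLN library had no count at all. With this spread the test gave log2 differences of 1.99 (SE 2.71, edgeR adjusted p = 0.924) against the spleen and 5.41 (SE 3.15, edgeR adjusted p = 0.491) against the MLN. The 95% interval for the first ran from -4.18 to 8.17. DESeq2 and limma-voom called Adgre1 in neither comparison.

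Mrc1 encodes the mannose receptor CD206, an endocytic receptor of alternatively activated and tissue-resident macrophages. Its levels were 398.2, 317.2 and 704.5 CPM in heart 1, 2 and 3, 38.4, 37.2 and 123.8 CPM in spleen 1, 2 and 3, and 0, 0 and 15.6 CPM in MLN 1, 2 and 3. All heart libraries were above all others, and only MLN 3 of the lymph node libraries held any count. The log2 difference was 2.83 against the spleen (SE 2.30, edgeR adjusted p = 0.778) and 6.51 against the MLN (SE 2.73, edgeR adjusted p = 0.299). Without MLN 3 the second comparison passed, at an edgeR adjusted p of 0.0407 over the remaining libraries. With only the compared organs fitted, the SE was 0.67 against the spleen and 3.03 against the MLN (edgeR adjusted p = 0.0855 and 0.397). By limma-voom Mrc1 passed in both comparisons, and by DESeq2 against the MLN alone.

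Spp1 (ENSMUSG00000029304, chromosome 5, 104435118 to 104441050, mm10) had the highest mean heart level of the 10 members, which rested on heart 1. It was at 9189, 815.7 and 2948 CPM in heart 1, 2 and 3, at 5.14, 0 and 0.117 CPM in spleen 1, 2 and 3, and at 0.682, 4.16 and 0.0271 CPM in MLN 1, 2 and 3. Its reads made up 0.688% of all counts in heart 1, 0.0903% in heart 2 and 0.244% in heart 3, and by mean CPM it ranked 20 in the heart, 11234 in the spleen and 11009 in the MLN. The lowest heart library was far above the highest lymphoid one, yet the heart libraries themselves differed 11.3-fold. Without heart 1, its mean fell from 4318 to 1882 CPM, below that of Chil3 (2831 CPM), which was also higher in heart 2 and heart 3. Spp1 missed the edgeR threshold, with log2 differences of 11.27 against the spleen (SE 3.15, 95% interval 4.07 to 18.47, edgeR adjusted p = 0.132) and 11.38 against the MLN (SE 3.17, 95% interval 4.15 to 18.60, edgeR adjusted p = 0.116). DESeq2 called Spp1 in both comparisons and limma-voom in neither.

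Fn1 encodes fibronectin, a matrix glycoprotein of fibroblasts, plasma and macrophages that integrins bind. It was at 264.3, 48.6 and 95.1 CPM in heart 1, 2 and 3, at 1.04, 7.23 and 0.162 CPM in spleen 1, 2 and 3, and at 0, 0.419 and 15.5 CPM in MLN 1, 2 and 3. Fn1 and Spp1 shared their order among the heart libraries, highest in heart 1 and lowest in heart 2, both with the scaling used and with scaling by total count alone. A fibroblast marker list had this order too, at 20187, 2542 and 4569 CPM in heart 1, 2 and 3 against at most 2.78 CPM in the spleen and 16.4 CPM in the MLN. All 10 of its genes had counts in the heart, while 3 had none in any spleen library and 4 none in any MLN library. Marker lists of endothelial cells (1767, 452.1 and 771.4 CPM) and platelets (602.7, 300.0 and 384.8 CPM) had the same order in heart 1, 2 and 3. The part of RNA from any of these cell types in the levels of Spp1 and Fn1 was not tested. The log2 difference of Fn1 was 5.60 against the spleen (SE 2.50, edgeR adjusted p = 0.379) and 4.68 against the MLN (SE 2.39, edgeR adjusted p = 0.403). DESeq2 called Fn1 against the spleen alone, and limma-voom called it in neither comparison.

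Thbs1 encodes thrombospondin 1, a matricellular protein of platelets, macrophages and stromal cells that activates TGF-beta and binds CD36 and CD47. Its levels were 218.3, 427.3 and 853.0 CPM in heart 1, 2 and 3, 0.0321, 0.0283 and 0.902 CPM in spleen 1, 2 and 3, and 0.259, 0 and 1.96 CPM in MLN 1, 2 and 3. Thbs1 was lowest in heart 1, where Spp1 and Fn1 were highest. Every lymphoid library held under 2 CPM. The log2 difference was 10.59 against the spleen (SE 2.63, 95% interval 4.58 to 16.60, edgeR adjusted p = 0.106) and 9.39 against the MLN (SE 2.52, 95% interval 3.65 to 15.14, edgeR adjusted p = 0.108), and DESeq2 and limma-voom called it in both. Platelet markers summed to 602.7, 300.0 and 384.8 CPM in heart 1, 2 and 3. Pf4, which macrophages also express, was at 595.1, 284.5 and 305.4 CPM of these. The rest of the sum was lowest in heart 1 and highest in heart 3, as Thbs1 was. Of the 6 listed genes, only Treml1 had no count in the heart. The part of platelet RNA was not tested.

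Gpnmb encodes a transmembrane glycoprotein of lysosomes and the cell surface that rises in lipid-laden and phagocytic macrophages. It was at 26.03, 19.8 and 17.0 CPM in heart 1, 2 and 3, at 0.881, 0.954 and 0.0346 CPM in spleen 1, 2 and 3, and had no count in any MLN library. Gpnmb was thus low but even in the heart, within 1.53-fold, and it was the member called in the heart against the MLN, at least 1592-fold higher (edgeR adjusted p = 0.0363, higher in 3 of 3 libraries). That call held in 9 of 19 alternatives but in 1 of the 9 that left out a library, with adjusted p-values up to 0.116 in those 9. Against the spleen the log2 difference was 5.07 (SE 1.42, 95% interval 1.83 to 8.31, edgeR adjusted p = 0.161). DESeq2 and limma-voom called Gpnmb in both heart comparisons.

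Apoe encodes apolipoprotein E, which carries cholesterol out of macrophages and is abundant in resident and repair populations. Its levels were 408.1, 439.3 and 470.3 CPM in heart 1, 2 and 3, 30.1, 70.9 and 94.3 CPM in spleen 1, 2 and 3, and 22.0, 10.1 and 93.6 CPM in MLN 1, 2 and 3. With the scaling used, its heart libraries had the narrowest spread of the members, at 1.15-fold. That rested on the scaling, since its share of all counts ran from 0.0306% in heart 1 to 0.0486% in heart 2. Apoe had counts in all 9 libraries. It was 6.74-fold higher than in the spleen (log2 2.75, SE 0.81, 95% interval 0.90 to 4.61, edgeR adjusted p = 0.147) and 10.5-fold higher than in the MLN (log2 3.39, SE 0.83, 95% interval 1.49 to 5.29, edgeR adjusted p = 0.0903). Neither value passed the edgeR threshold, and both did by DESeq2 and limma-voom. With only the compared organs fitted, the SE was 0.53 against the spleen and 0.86 against the MLN (edgeR adjusted p = 0.0579 and 0.0839).

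Arg1 encodes arginase 1, which turns arginine into ornithine and urea and is a standard marker of alternatively activated mouse macrophages. It was at 392.2, 421.0 and 698.5 CPM in heart 1, 2 and 3, at 0, 0.340 and 5.92 CPM in spleen 1, 2 and 3, and at 0, 7.66 and 2.12 CPM in MLN 1, 2 and 3. No lymphoid library reached 8 CPM, and a spleen and an MLN library had none. The log2 difference was 7.91 against the spleen (SE 2.82, 95% interval 1.48 to 14.35, edgeR adjusted p = 0.244) and 7.27 against the MLN (SE 2.74, 95% interval 1.02 to 13.53, edgeR adjusted p = 0.246). By limma-voom Arg1 passed in both comparisons, and DESeq2 gave it no adjusted p.

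Chil3 encodes Ym1, a secreted chitinase-like lectin of alternatively activated macrophages that monocytes and neutrophils also make. It was abundant in every library, at 1271, 2257 and 3405 CPM in heart 1, 2 and 3, at 132.7, 342.0 and 1560 CPM in spleen 1, 2 and 3, and at 158.6, 609.8 and 100.4 CPM in MLN 1, 2 and 3. Spleen 3 lay above heart 1, so these organs overlapped, while all heart libraries were above all MLN libraries. The log2 difference was 1.77 against the spleen (SE 0.99, edgeR adjusted p = 0.527) and 3.00 against the MLN (SE 1.03, edgeR adjusted p = 0.199). DESeq2 called Chil3 against the MLN alone, and limma-voom called it in neither comparison. Reads of Chil3 are uncertain because its near copies share sequence, although Chil4 had at most 0.140 CPM.

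Retnla encodes RELMalpha, a cysteine-rich protein induced by IL-4 and IL-13. It had 5890 counts, or 26.6 CPM, in heart 3 and no count in the other 8 libraries. It failed the filter on low counts and was not tested. Heart 3 also held the highest levels of Arg1, Mrc1, Chil3 and Thbs1, with either scaling. A neutrophil marker list was highest there too, at 775.6, 685.9 and 3889 CPM in heart 1, 2 and 3 against at most 29.6 CPM elsewhere, and all 8 of its genes had counts in the heart. The part of neutrophil RNA in the level of Chil3 was not tested.

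The levels of the spleen and MLN, which stand next to each other in the order of every tested member, did not pass for any gene. Spp1 was at 1.75 ± 2.94 CPM in the spleen and 1.62 ± 2.22 CPM in the MLN (SD, n = 3 each), with a 95% interval of the log2 difference from -4.80 to 4.58. Gpnmb had the smallest p-value, with 0.623 ± 0.511 CPM in the spleen and no count in the MLN (edgeR adjusted p = 0.684). It passed the filter on low counts only with the heart libraries included. With the spleen and MLN fitted alone, 8 members were tested and Gpnmb was not. The other 8 tested members had an adjusted p of 1. In the same comparison 0% of all genes passed by edgeR and 955 (5.75%) had an unadjusted p below 0.05, 1 of them a member, while DESeq2 called 785 genes (4.73%) and limma-voom 3 (0.0181%). Libraries of the MLN lay below all spleen libraries for 2 members, Gpnmb and Mrc1, as they did for 4.56% of genes.

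**Figure D2:**
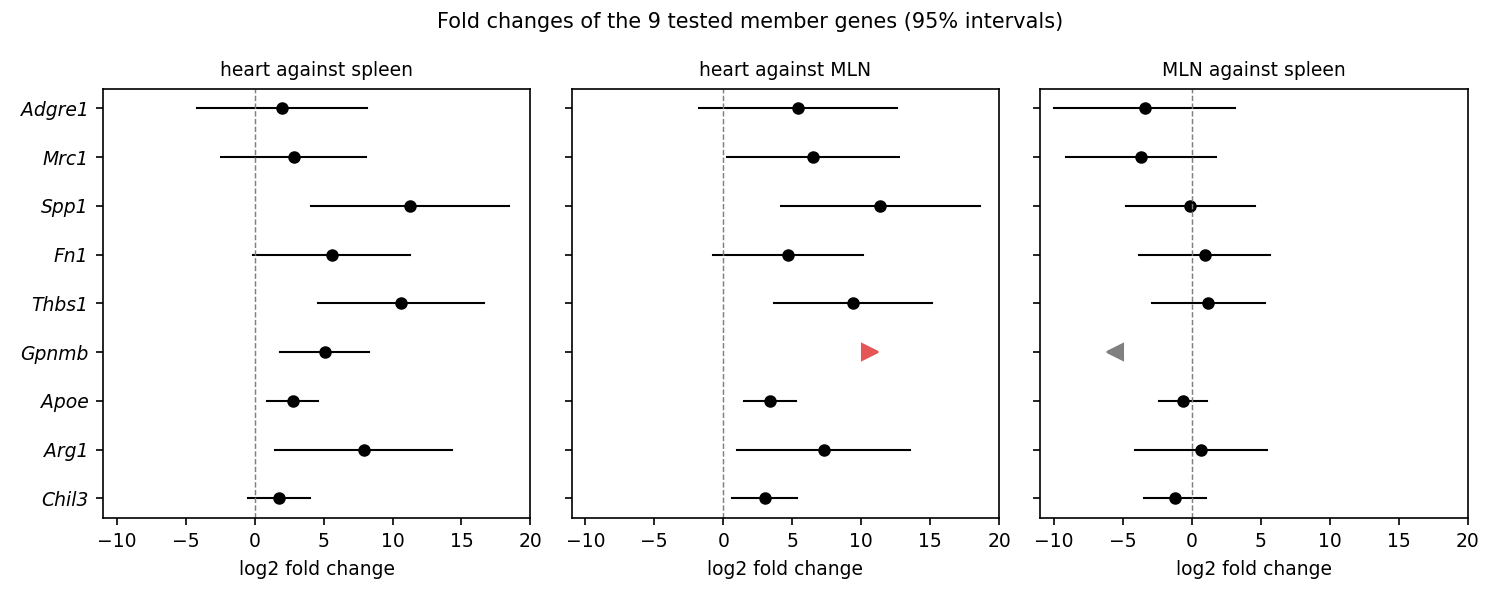
Log2 fold changes of the 9 tested members in the 3 comparisons, on a linear axis of log2 units. Points are fitted values, lines are 95% intervals from the edgeR fit, and triangles mark a lower bound for Gpnmb, which had no count in the MLN, in red where the gene passed. The intervals of Spp1, Thbs1, Apoe and Arg1 lie above 0 in both heart comparisons and span 0 in the MLN against the spleen.

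To compare levels between genes, CPM were divided by the merged exon length of each gene in kilobases (kb). In the heart, Spp1 had the highest mean level per kb (2620), followed by Chil3 (1416), Arg1 (226.2), Apoe (205.4) and Adgre1 (179.7), and Gpnmb had the lowest (3.22). Without heart 1, Chil3 (1735) was above Spp1 (1142). In the spleen, Chil3 led at 415.6 CPM per kb, ahead of Adgre1 at 45.1, and Spp1 was at 1.06. Chil3 made up between 55.7% and 94.1% of the members' summed level per kb in every spleen and MLN library. In the heart, Spp1 made up 79.5% of the sum in heart 1, 19.0% in heart 2 and 36.6% in heart 3, where Chil3 made up 11.1%, 53.1% and 42.7%. The makeup of the group thus differed among heart libraries as well as between organs.

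**Figure D3:**
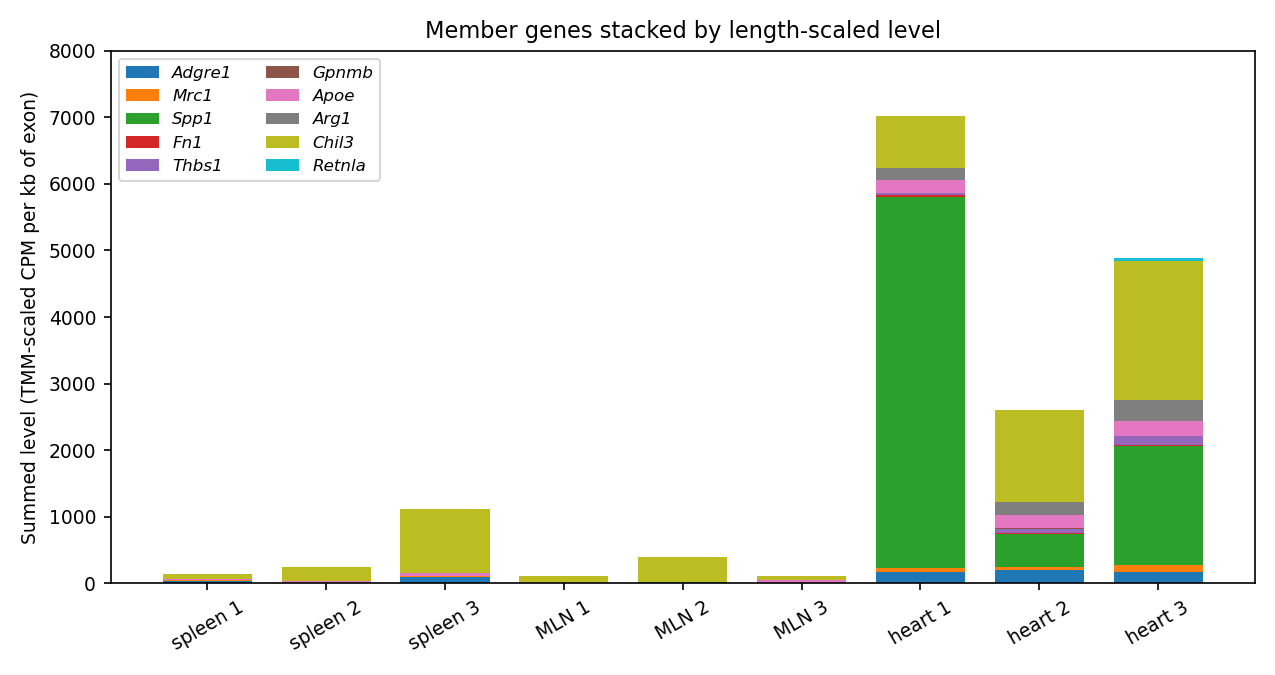
Level of the members per kb of exon (TMM-scaled CPM per kb, linear axis from 0), stacked for each library. Bar sections are single genes, and the sum was between 2602 and 7013 in the heart and between 107.9 and 1117 in the other libraries.

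Set against the macrophage markers of the same library, the members fell apart into genes that still stood higher in the heart and genes that did not. For each library, the CPM of a member was divided by the summed CPM of the macrophage marker list and multiplied by 100. Spp1 was at 92.5, 14.6 and 27.9 per 100 marker CPM in heart 1, 2 and 3 and at no more than 0.596 in any other library. Arg1 was at 3.95, 7.56 and 6.62 in heart 1, 2 and 3 against at most 1.01 elsewhere, and Thbs1 at 2.20, 7.67 and 8.08 against at most 0.348. Gpnmb was at 0.262, 0.356 and 0.161 in the heart and at most 0.102 elsewhere. These 4 genes did not overlap with either lymphoid organ. The share of all genes that did so on this scale was not computed.

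On the same relative scale, Apoe was at 4.11, 7.89 and 4.46 in heart 1, 2 and 3, which overlapped the spleen (3.50, 5.06 and 4.33) and the MLN (8.64, 1.33 and 16.6). Mrc1 was at 4.01, 5.69 and 6.68 in the heart and at 4.46, 2.65 and 5.68 in the spleen, which overlapped, while the MLN lay lower at 0, 0 and 2.77. Adgre1 and Chil3 overlapped with both organs. Adgre1 reached 15.1 in spleen 1 and 11.8 in heart 2, and Chil3 reached 80.1 in MLN 2 and 40.5 in heart 2. Fn1 was above the spleen and overlapped the MLN, where MLN 3 was at 2.74. Lyz2 and C1qb made up between 69.0% and 90.2% of the marker sum. Without these 2 genes, an alternative chosen after seeing the data, the overlap of Fn1 with the spleen was the only change. These ratios are a description with no test.

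**Figure D4:**
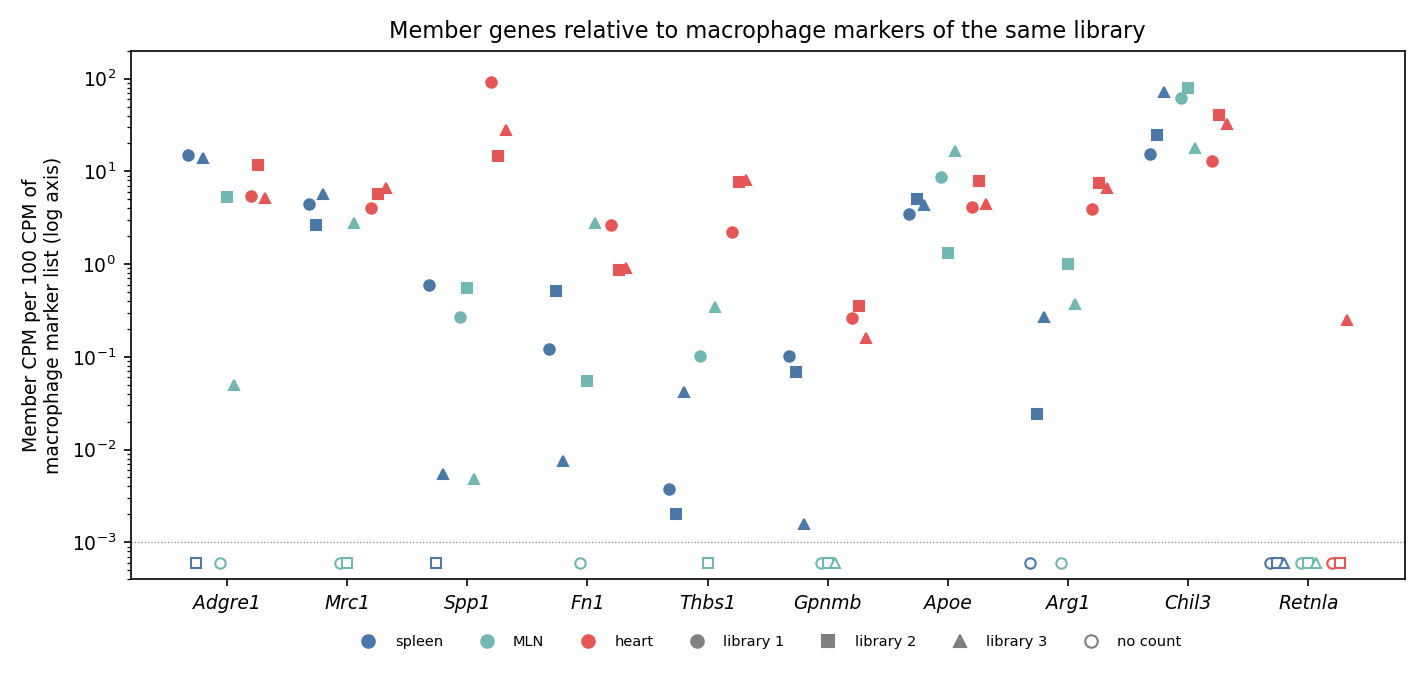
Level of each member per 100 CPM of the macrophage marker list of the same library, on a log axis, with colours for organs, shapes for library numbers and open symbols under the dotted line for no count. Spp1, Thbs1, Gpnmb and Arg1 stay above all lymphoid libraries in the heart, and Adgre1, Apoe and Chil3 overlap.

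Promoter sequences are shown for the gene with the highest mean heart level over all 3 libraries (Spp1), the gene that passed the test (Gpnmb) and the gene with the smallest heart difference (Chil3). They come from RefSeq on GRCm38.p6, which matched 6 of 10 members, and run from 250 bases before to 50 bases after the annotated start, 5′ to 3′ on the gene's strand. Capitals mark matches on either strand to AGGAAGT (ETS family, which includes the macrophage factor PU.1), AACCACA (Runx), TGANTCA (AP-1) and TATAAA (a core promoter box). The E-box letters CACGTG and CATGTG were searched too.
Spp1 chr5:104434861-104435160 (+ strand): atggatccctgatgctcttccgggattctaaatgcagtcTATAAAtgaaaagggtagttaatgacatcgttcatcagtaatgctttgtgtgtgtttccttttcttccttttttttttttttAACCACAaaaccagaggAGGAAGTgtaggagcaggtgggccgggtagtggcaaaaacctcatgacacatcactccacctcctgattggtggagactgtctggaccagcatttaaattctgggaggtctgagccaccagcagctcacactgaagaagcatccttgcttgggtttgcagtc
Gpnmb chr6:49036268-49036567 (+ strand): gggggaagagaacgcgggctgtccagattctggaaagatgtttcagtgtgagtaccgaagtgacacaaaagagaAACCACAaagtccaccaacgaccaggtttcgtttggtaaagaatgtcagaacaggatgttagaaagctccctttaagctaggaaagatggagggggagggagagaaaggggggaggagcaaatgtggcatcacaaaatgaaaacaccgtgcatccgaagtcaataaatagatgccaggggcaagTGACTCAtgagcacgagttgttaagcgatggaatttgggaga
Chil3 chr3:106167515-106167814 (- strand): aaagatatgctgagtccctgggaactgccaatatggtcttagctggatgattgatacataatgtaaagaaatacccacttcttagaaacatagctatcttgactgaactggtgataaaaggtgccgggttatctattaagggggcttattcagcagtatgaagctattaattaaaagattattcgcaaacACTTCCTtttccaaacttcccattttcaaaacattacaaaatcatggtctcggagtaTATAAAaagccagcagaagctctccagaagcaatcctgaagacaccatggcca
The Runx letters stood at position 122 of the window in Spp1 and at position 75 in Gpnmb, and 5.27% of 32851 promoter windows hold them. The ETS letters stood at position 139 in Spp1 and 191 in Chil3 and occur in 9.35% of windows. Gpnmb held the AP-1 letters at position 259, just after the start, as 7.81% of windows do. TATAAA letters, found in 13.6% of windows, stood at position 248 in Chil3 and position 40 in Spp1. These were 3 and 211 bases before the start. No E-box letters were in these 3 windows, and they occur in 7.15% (CACGTG) and 14.2% (CATGTG) of all. No matches overlapped each other. Spp1 has a second RefSeq window, chr5:104435942-104436241, which held none of the letters searched. A match is a description of letters and not a bound site.

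Genes whose pattern over the 9 libraries was among the most like that of Spp1 were the chemokine Ccl7, the fibroblast proteoglycan Dcn, the matrix protein Mgp and the sodium channel gene Scn7a. Likeness was the mean absolute difference of log2(CPM + 1) after each gene was centred on its own mean, and it was 0.68 for Ccl7 and 1.04 to 1.14 for the others, among 7379 candidate genes. Ccl7 was at 4982, 331.0 and 882.1 CPM in heart 1, 2 and 3 and at most 2.22 CPM elsewhere. For Apoe the nearest genes were Metrnl, Egr1, Sdc4, Dock4 and Fosb, with differences of 0.44 to 0.57. For Adgre1 they were Hmox1, Ptafr, Clec4a1, Pla2g4a and Emilin2, at 1.32 to 1.69. Among the members, Apoe and Gpnmb (0.85) and Arg1 and Thbs1 (0.88) were nearest to each other, and Spp1 and Chil3 (3.44) were farthest apart. Since the libraries fall into heart and lymphoid groups, these values mostly carry the difference between organs.

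Receptors that bind osteopontin, fibronectin or thrombospondin were listed separately, and 13 of 15 were tested. In the heart 1 rose against the spleen and 3 against the MLN, with median log2 differences of 1.43 and 2.37 over the list and 0.02 and 0.12 over all genes, of which 0.614% and 1.1% rose. Cd44, a receptor for hyaluronan and osteopontin, averaged 1495 ± 518.2 CPM (SD, n = 3) in heart libraries, 236.9 ± 76.5 CPM in spleen libraries and 128.9 ± 46.4 CPM in MLN libraries (edgeR adjusted p = 0.0452 and 0.0204). The scavenger and thrombospondin receptor Cd36 was at 6954, 1152 and 1421 CPM in heart 1, 2 and 3 and rose against the MLN (edgeR adjusted p = 0.0283). The shared integrin chain Itgb1 rose from 123.1 ± 2.08 CPM in the MLN to 427.5 ± 48.6 CPM (edgeR adjusted p = 0.0429).

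Genes of lipid-associated macrophages and of lipid handling around Apoe were tested in full. Of the 26, 2 rose against the spleen and 5 against the MLN, beside 0.614% and 1.1% of all genes. The list medians were 2.41 and 3.08. Trem2, a lipid-sensing receptor of such macrophages, was at 41.2, 20.9 and 28.9 CPM in heart 1, 2 and 3 and had no count in the other 6 libraries (at least 2076-fold and 2302-fold higher, edgeR adjusted p = 0.0408 and 0.0343). The cathepsin gene Ctsl rose in both comparisons (edgeR adjusted p = 0.0469 and 0.0327). Tyrobp, the signalling adaptor of Trem2, and the cathepsin gene Ctsb rose against the MLN (edgeR adjusted p = 0.0215 and 0.0403), as did Fabp4. Fabp4 is also in a marker list of endothelial cells. That list summed to 1767, 452.1 and 771.4 CPM in heart 1, 2 and 3 and to at most 217.8 CPM elsewhere. The part of endothelial RNA was not tested. In the list of lysosome genes and of the MiT factors that drive Gpnmb, 1 of 15 rose in each comparison, Cd44, which is also among the receptors above.

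Of 24 further genes of alternative activation, 0 passed by edgeR in the heart against the spleen or the MLN, with list medians of 2.50 and 3.62. At an unadjusted p below 0.05, 7 and 11 were higher and 0 lower, against 13.6% and 15.5% of all genes in either direction. DESeq2 called 7 and 9 higher, where it called 11.3% and 13.2% of all genes. Where limma-voom called 6.87% and 8.02% of all genes, it called 6 and 8 higher in this list. Its most abundant members were Pdcd1lg2, a ligand of PD-1, with means of 219.5 ± 149.8 CPM for heart and 327.4 ± 146.7 CPM for spleen libraries (edgeR adjusted p = 0.906), and the cytokine Il10, with means of 448.2 ± 208.4 and 154.8 ± 51.7 CPM (edgeR adjusted p = 0.322). Of the arginine and polyamine genes around Arg1, 13 of 16 were tested and 0 passed by edgeR in either heart comparison. In each of these, 4 were higher and 1 lower at an unadjusted p below 0.05, against 13.6% and 15.5% of all genes. DESeq2 called 3 and 2 higher and 1 lower, against 11.3% and 13.2% of all genes. With limma-voom 3 were higher, against 6.87% and 8.02% of all genes. Ass1, which rebuilds arginine, averaged 278.2 ± 247.3 CPM for heart and 641.1 ± 133.6 CPM for spleen libraries (edgeR adjusted p = 0.422), and Sat1, which breaks down polyamines, averaged 221.1 ± 100.7 and 148.4 ± 13.7 CPM (edgeR adjusted p = 0.723).

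Among 18 matrix partners of fibronectin and thrombospondin, 2 rose against the spleen and 3 against the MLN, beside 0.614% and 1.1% of all genes. The list medians were 9.11 and 11.83, the highest of the 6 pathway lists. With genes that had no count in the spleen or MLN set at their lower bound (6 and 8 of 18), these medians were 8.22 and 8.76, and such bounds, chosen after seeing the data, changed the median of no other pathway list. Fbln1, a fibronectin-binding matrix protein, was at 60.9, 117.6 and 69.2 CPM in heart 1, 2 and 3 and had no count elsewhere (edgeR adjusted p = 0.0278 and 0.0198). Postn passed against the spleen (edgeR adjusted p = 0.0484), and Vcan and Sparc passed against the MLN (edgeR adjusted p = 0.0429 and 0.0454). Postn is also in the fibroblast list, whose summed level was between 2542 and 20187 CPM in the same heart libraries.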

How the data were processed

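RNA of cells sorted as Tregs was sequenced in 9 libraries, 3 per organ. The authors deposited raw read counts per gene, with no normalization and no pooling, made with CASAVA 1.8.2, HISAT2 and HTSeq 0.6.0 on mm10 according to the submitters' processing notes. How strand was treated and which gene models were counted is not given in the sources used here. Exons of other annotated genes overlap those of Spp1 (Gm42793), Fn1 (Apol7d) and Thbs1 (Gm29233) in part, and reads there are uncertain.

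The test was edgeR 4.0.16 (R 4.3.3). Genes kept by its filter (minimum count 10, minimum total 15) got TMM scaling (trimmed mean of M-values) and were fitted with a term per organ over all 9 libraries (6 residual degrees of freedom). Tests were two-sided, with Benjamini-Hochberg adjustment over all tested genes and a threshold of 0.05. SE and 95% intervals derive from the F statistic and cover the spread between libraries. Where an organ had no count, folds are lower bounds against 3 counts per library, a floor that covers counting error only since reads carry no molecular identifiers. The median coefficient of variation between libraries of an organ was 102%. No libraries agreed within sampling noise. DESeq2 1.42.0 and limma 3.58.1 were alternatives. Coordinates and exon lengths came from GENCODE vM21 on GRCm38, which mm10 names.

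All 10 members are named. From each gene list the called genes, at most 4 by p-value, are named, or else the 2 most abundant, and for Spp1, Apoe and Adgre1 the 5 most similar genes with a mean of at least 10 CPM, of which 1 is not reported here. Genes named from the cell marker lists were chosen after their values were seen. Members and lists were chosen with earlier results of these data known. Deviations of same-numbered libraries from their organ means had correlations from -0.21 to 0.22. With 3 libraries per organ, this check cannot exclude pairing. The labels name no pairs, so the numbers were not taken as pairs, and a fit with a replicate block was an alternative.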

Additional observations from a re-analysis of the deposited data

How the results depend on the processing

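All 18 member values in the heart comparisons kept their direction in every alternative in which they were fitted, and 13 of 169 member values in the MLN against the spleen reversed, none called. With limma-voom and with the replicate block, Spp1 became 1.89 and 1.32 and Fn1 -1.84 and -0.62. Without spleen 3, MLN 3 and heart 2 together, a setting chosen after seeing the data, Chil3 became 0.68 and Fn1 -4.31. Leaving out single libraries gave -2.30 to 4.74 for Spp1, -2.39 to 0.29 for Chil3, -0.98 to 4.24 for Arg1, -3.74 to 3.12 for Fn1 and -1.32 to 4.59 for Thbs1. The cause was not tested. Members called in the heart against the spleen and the MLN numbered 5 and 6 with DESeq2, 5 and 5 with limma-voom, and 0 and 0 with the replicate block or without the 3 libraries together. DESeq2 gave no adjusted p for Arg1 and called 1 member, Gpnmb, in the MLN against the spleen. Gpnmb failed the filter when those organs were fitted alone. Leaving out single libraries gave 0 against the spleen and 0 to 1 against the MLN, where the Gpnmb call ended without every library but spleen 3 and Mrc1 was called without MLN 3. All genes called numbered 1885, 2199 and 785 with DESeq2 (heart against spleen, heart against MLN, MLN against spleen), 1141, 1332 and 3 with limma-voom, 223 and 369 with a stricter filter, 292 and 548 with the compared organs alone, 0 and 0 with the replicate block, and 3 and 4 without the 3 libraries. Leaving out single libraries gave 0 to 122 and 0 to 249. Scaling by total count alone moved the median of all genes by -0.28 and -0.23 in the heart comparisons. It changed no call or direction of a member in these comparisons, and it moved the higher and lower calls of all genes in the heart against the MLN from 183 and 47 to 139 and 64. Same-numbered libraries did not all correlate best with each other.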

Other observations

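Relatives of the members within the same gene families were mostly seen in the heart libraries. Arg2, the mitochondrial arginase, was at 219.8, 284.7 and 380.6 CPM in heart 1, 2 and 3, was at 0 in every spleen library, and was at 10.45, 14.8 and 0 CPM in MLN 1, 2 and 3 (edgeR adjusted p = 0.0774 against the spleen and 0.320 against the MLN). Retnlg, a resistin-like gene of neutrophils and a member of the neutrophil marker list, was at 69.5, 3.47 and 234.1 CPM in heart 1, 2 and 3 with no count elsewhere, and that list was highest in heart 3, at 3889 CPM. Thbs2, which fibroblasts make, was at 85.1, 12.3 and 17.0 CPM in the heart, in the order of the fibroblast, endothelial and platelet lists. Mrc2 had counts in heart libraries alone (5.98, 3.60 and 0.538 CPM). Adgre4, a macrophage receptor related to F4/80, was at 74.1, 12.3 and 114.9 CPM in spleen 1, 2 and 3, had no count in the MLN, and was at 20.8, 0 and 135.2 CPM in heart 1, 2 and 3. Adgre5, which lymphocytes also carry, had counts in all 9 libraries, from 27.7 to 123.9 CPM. Pmel, a relative of Gpnmb, did not exceed 3.93 CPM. Chil1, Thbs3 and Chia1 reached 3.999, 3.56 and 14.6 CPM, each in a single heart library, and Retnlb, Thbs4, Comp and Chil4 stayed under 1 CPM in all libraries.

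Markers of resident macrophages of the heart and spleen varied among libraries too. Folr2 was at 334.3, 121.7 and 272.4 CPM in heart 1, 2 and 3 and at most 4.53 CPM elsewhere, and Vsig4 was at 255.5, 0 and 333.9 CPM in heart 1, 2 and 3 with no count elsewhere. A list of 8 markers of red pulp and sinus macrophages summed to 275.9, 486.2 and 344.1 CPM in heart 1, 2 and 3. In spleen 1, 2 and 3 it summed to 114.8, 85.0 and 438.8 CPM. Its genes had edgeR adjusted p-values of 0.324 or more in the heart against the spleen. Cd5l was at 9.70, 19.96 and 96.9 CPM in spleen 1, 2 and 3 and at most 4.11 CPM in the heart libraries, whereas Hmox1 was at 32.6, 16.8 and 148.9 CPM in the spleen and 72.03, 445.2 and 211.9 CPM in the heart libraries.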
